A study of Mus musculus with 28 samples.

Results

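Lungs of mice that inhaled ozone on 4 occasions were compared with lungs of mice that inhaled carbon black on 4 occasions. The comparison holds every library whose title gives ozone or carbon black at day 4, which is 3 ozone and 3 carbon black libraries, 6 of the 28 libraries of the study. All mice were male wild-type C57BL/6 animals, an inbred laboratory strain with no transgene, with an age given as 8-12 weeks. Ozone, an oxidant gas, was given at 2 ppm, and carbon black, a powder of nearly pure carbon, at 10 mg/m3, each for 3 hours per exposure. The measured material was mRNA of whole-lung homogenate. The study also held sham and co-exposure groups and a day 1 set with 1 exposure and 4 libraries per group, so that day and number of exposures cannot be told apart. Whether every library came from a mouse of its own is not stated in the labels, and the p-values therefore reflect only how far these libraries differ among themselves, which may be technical. The sources used here do not give the interval from the last exposure to tissue collection.

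Ozone reacts with lipids and proteins at the airway surface and is known to injure ciliated cells and alveolar type 1 cells, which are replaced by division of club cells and alveolar type 2 cells. Carbon black is poorly soluble, carries little reactive chemistry of its own, and is cleared mainly by uptake into alveolar macrophages. Epithelial repair runs through DNA synthesis, mitosis and a transient state in which cells express keratin 8, clusterin and claudin 4 before they regain a mature identity.

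Levels are given as CPM (counts scaled to a library of 1e6 counts, with TMM factors), and differences as log2 fold changes of ozone over carbon black with their standard error (SE). A gene was called when its Benjamini-Hochberg adjusted p from the quasi-likelihood test of edgeR was under 0.05. Totals, in M (1e6) estimated counts, lay between 5.14 M and 8.46 M in the 6 libraries. The tissue showed its defining markers: Sftpc, surfactant protein C of alveolar type 2 cells, was at 14080, 13413 and 17370 CPM with ozone and 17983, 13472 and 14588 CPM with carbon black, and Ager, a protein of alveolar type 1 cells, at 2066, 2348 and 2181 and 1836, 1664 and 1956 CPM. Neither passed the test (adjusted p = 0.884 and 0.073). The ozone libraries were alike (pairwise correlation of log levels 0.981 to 0.983) and the carbon black libraries less so (0.943 to 0.969). Carbon black library 1 had the lowest total and the lowest TMM factor (0.902), and carbon black library 3 carried RNA of heart, skeletal muscle and fat, as described at the end.

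Of 14887 genes tested, 1617 (10.9%) were higher and 1364 (9.16%) lower with ozone than with carbon black. With a change of at least 1 on the log2 scale these were 445 (2.99%) higher and 272 (1.83%) lower. The levels of the 3 ozone libraries did not overlap those of the 3 carbon black libraries in 1570 of the 1617 higher and 1250 of the 1364 lower genes. These genes were called from the same levels, so the lack of overlap is not separate evidence for them. The share without overlap among all genes tested is not given here. The median log2 fold change over all genes tested was -0.01. The day 4 counts of each list below stand beside these shares of 10.9% of all genes higher and 9.16% lower. Leaving out ozone library 2 gave 1885 calls, and leaving out carbon black library 1 gave 2112, of which 895 were lower. On the first principal component of these libraries, with 46.1% of the variance, the exposures lay apart; the second, with 27.0%, spread the carbon black libraries from 44.1 to -47.1.

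**Figure D1:**
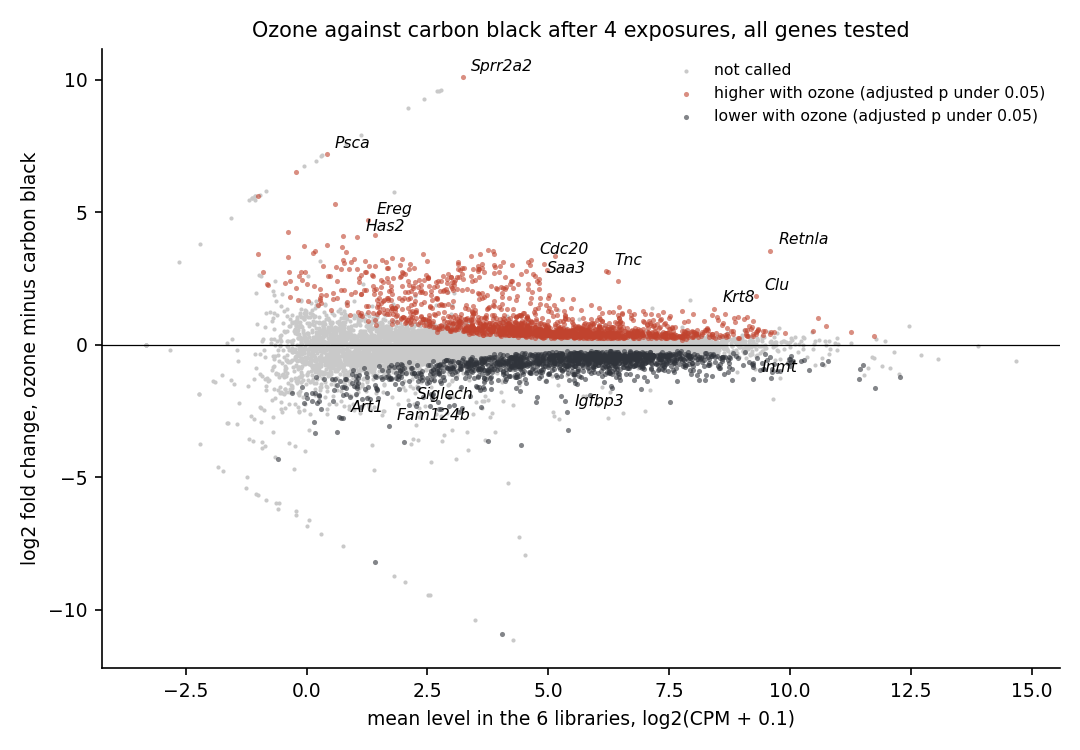
Log2 fold change of ozone over carbon black after 4 exposures against the mean level of the 6 libraries, log2(CPM + 0.1), with 1 point per gene tested. Red points (1617 genes) were higher and dark points (1364 genes) lower with ozone at an adjusted p under 0.05, and Retnla and Clu stand out among the abundant genes that rose. The points on slanted lines at both ends are genes with no count in 1 of the groups, whose fitted values are not bounds.

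The genes with the smallest p values had roles in cell division, inflammation and repair. Cdc20, which switches on the anaphase-promoting complex that ends mitosis, was at 44.4, 47.7 and 43.3 CPM in the ozone libraries and 3.25, 5.74 and 5.41 CPM in the carbon black libraries (log2 fold change 3.19, SE 0.21, adjusted p = 9.43e-11). Retnla (chr16:48842551-48844461, GRCm38), a secreted protein of alternatively activated macrophages and airway epithelium, reached 1564, 1318 and 1390.1 CPM with ozone against 125, 115 and 122 CPM with carbon black (log2 fold change 3.56, SE 0.24, adjusted p = 2.02e-10). Its sham level was 60.2, 53.5 and 66.9 CPM, so the ozone libraries stood far above both other groups. Clu (chr14:65968483-65981547), the secreted chaperone clusterin, stood at 952, 929 and 1078 against 282, 284 and 257 CPM (log2 fold change 1.84, SE 0.13, adjusted p = 2.04e-10). Tnip3, an inhibitor of NF-kappa B signalling, rose from 1.3, 2.73 and 1.35 to 15.6, 22.1 and 19.7 CPM (log2 fold change 3.37, SE 0.23, adjusted p = 1.24e-10). The other 2 genes of this rank, the nuclear import receptor Kpna2 (log2 fold change 1.41) and the spindle protein Knstrn (2.99), are both used in dividing cells. None of the 6 had overlapping groups.

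Genes of cell division were higher throughout. All 22 mitosis genes tested and all 22 DNA replication genes tested were higher with ozone, against 10.9% of all genes, and each count was 22 in every alternative setting. The median log2 fold change was 2.74 for mitosis and 1.53 for replication, against -0.01 over all genes. Ccnb1, cyclin B1, was at 25.6, 29.1 and 34.8 CPM with ozone and 2.38, 5.06 and 2.57 CPM with carbon black (log2 fold change 3.12, SE 0.30, adjusted p = 5.35e-08). Cdk1, the kinase it activates, was at 40.2, 47.9 and 41.2 and 4.54, 6.69 and 3.51 CPM (log2 fold change 3.12, SE 0.30, adjusted p = 1.03e-07), and Aurka, a spindle kinase, at 19.3, 22.4 and 19.1 and 2.81, 2.73 and 2.84 CPM (log2 fold change 2.85, SE 0.22, adjusted p = 1.87e-09). The groups did not overlap for these 3 genes. The sham libraries held 2.4, 1.23 and 2.26 CPM of Ccnb1 and 3.13, 2.46 and 4.08 CPM of Cdk1, nearer to carbon black than to ozone. The summed level of the mitosis list was 841, 930 and 942 CPM with ozone. It was 171, 164 and 113 CPM with carbon black and 98.5, 81.9 and 111 CPM in sham, so carbon black lay above sham. Mki67, the Ki-67 antigen of cycling cells, was more spread in the carbon black group, at 39.4, 26.4 and 17.2 CPM, against 136, 148 and 151 CPM with ozone (log2 fold change 2.42, SE 0.34, adjusted p = 2.62e-05). Relative to sham, the median mitosis gene differed by 3.25 with ozone and by 0.58 with carbon black on the log2 scale; these medians share the libraries of the direct comparison and are given as levels only.

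The replication list held licensing factors, helicase subunits and enzymes of nucleotide supply, and all of these kinds were higher. Rrm1, the large subunit of ribonucleotide reductase, stood at 77, 96.1 and 88.4 against 32.2, 30.9 and 29.2 CPM (log2 fold change 1.51, SE 0.14, adjusted p = 3.31e-08). Tk1, thymidine kinase, was at 16.5, 22.4 and 21.8 against 2.38, 4.1 and 3.65 CPM (log2 fold change 2.55, SE 0.30, adjusted p = 1.48e-06), and Tyms, thymidylate synthase, at 18.5, 21.9 and 23.9 against 8.22, 7.92 and 7.16 CPM (log2 fold change 1.47, SE 0.16, adjusted p = 4.86e-07). The helicase subunit Mcm7 rose less, from 24, 21 and 24.6 to 49.3, 61.4 and 58.8 CPM (log2 fold change 1.29, SE 0.13, adjusted p = 2.49e-07). The smallest log2 change of the list was 0.97, of the clamp loader subunit Rfc3, and the largest 3.01, of Rrm2, the small subunit of ribonucleotide reductase; both were picked out after their values were seen. Fewer cells of a type and less RNA per cell cannot be told apart in bulk tissue, and neither can more dividing cells and more of these transcripts per dividing cell.

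Promoter windows of the mitosis genes are shown because these genes moved together. In the RefSeq windows of GRCm38.p6, from 250 bases before to 50 bases after each start site, 17 of the 22 mitosis genes had 18 windows. The letters CCAAT, the box read by NF-Y, on either strand were in 16 of the 18 (88.9%), against 37.4% of all 32851 windows. TTTGAA, the letters of the cell cycle homology region, on either strand were in 14 (77.8%), against 17.9% of all windows, and both were in 14 (77.8%), against 6.95%. In the 23 windows of the replication genes, CCAAT was in 13 (56.5%) and TTTGAA in 2 (8.7%). A match is a description of the letters and not evidence that a factor binds there. The 4 mitosis genes with the smallest p that held both are printed 5′ to 3′ on the strand of the gene, with both motifs and their reverse complements in capitals. The windows are chr4:118437294-118437593 on the minus strand for Cdc20, chr2:172370521-172370820 on the minus strand for Aurka, chr10:69352863-69353162 on the minus strand for Cdk1 and chr19:37376132-37376431 on the plus strand for Kif11, a spindle motor.
Cdc20: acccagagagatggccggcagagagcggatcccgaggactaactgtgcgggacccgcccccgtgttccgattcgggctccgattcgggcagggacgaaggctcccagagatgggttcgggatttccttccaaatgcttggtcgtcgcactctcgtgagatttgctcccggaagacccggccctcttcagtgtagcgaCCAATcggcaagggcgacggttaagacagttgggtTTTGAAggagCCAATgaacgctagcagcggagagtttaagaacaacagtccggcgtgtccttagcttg
Aurka: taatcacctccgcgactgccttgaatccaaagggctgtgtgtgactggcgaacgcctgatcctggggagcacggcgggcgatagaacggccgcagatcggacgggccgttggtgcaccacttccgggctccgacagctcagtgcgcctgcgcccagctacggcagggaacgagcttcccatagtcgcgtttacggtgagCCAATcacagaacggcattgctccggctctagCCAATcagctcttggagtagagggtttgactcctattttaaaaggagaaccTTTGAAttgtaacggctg
Cdk1: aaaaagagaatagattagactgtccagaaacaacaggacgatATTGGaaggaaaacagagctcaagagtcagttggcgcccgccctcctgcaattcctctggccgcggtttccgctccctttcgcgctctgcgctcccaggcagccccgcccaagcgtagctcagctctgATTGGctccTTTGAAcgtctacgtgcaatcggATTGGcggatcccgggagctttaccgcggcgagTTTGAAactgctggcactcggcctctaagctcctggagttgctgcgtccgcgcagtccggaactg
Kif11: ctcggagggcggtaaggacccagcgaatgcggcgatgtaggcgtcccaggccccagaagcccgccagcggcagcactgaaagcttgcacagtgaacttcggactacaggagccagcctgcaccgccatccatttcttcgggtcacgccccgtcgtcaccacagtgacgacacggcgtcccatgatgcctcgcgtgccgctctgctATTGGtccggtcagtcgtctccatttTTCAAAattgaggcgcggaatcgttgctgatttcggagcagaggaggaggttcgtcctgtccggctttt
Cdc20 held 2 CCAAT boxes and 1 TTTGAA, Aurka 2 and 1, Cdk1 3 and 2, and Kif11 1 of each. The log2 fold changes of these 4 genes were 3.19, 2.85, 3.12 and 2.42.

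The same contrast in the day 1 libraries, after 1 exposure, shows which of these differences were already there. At day 1, 1735 genes (11.7%) were called, 837 higher and 898 lower with ozone, and 1076 without ozone library 4 of that day. The gap between ozone and carbon black differed between the days for 883 genes (5.93%). This count fell to 500, 559 and 543 without ozone day 4 libraries 2, 1 and 3, and to 557 without ozone day 1 library 1. DNA replication was higher at day 1 in 21 of 22 genes (median 0.90), and 4 of the 22 differed between days. Mitosis was higher at day 1 in 1 of 22 genes (median 0.30), and all 22 differed between days. Cdc20 had a log2 fold change of 0.22 at day 1 and 3.19 at day 4 (difference 2.97, SE 0.28, adjusted p = 4.54e-07), while Tk1 had 1.25 and 2.55 (difference 1.30, adjusted p = 0.0518).

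**Figure D2:**
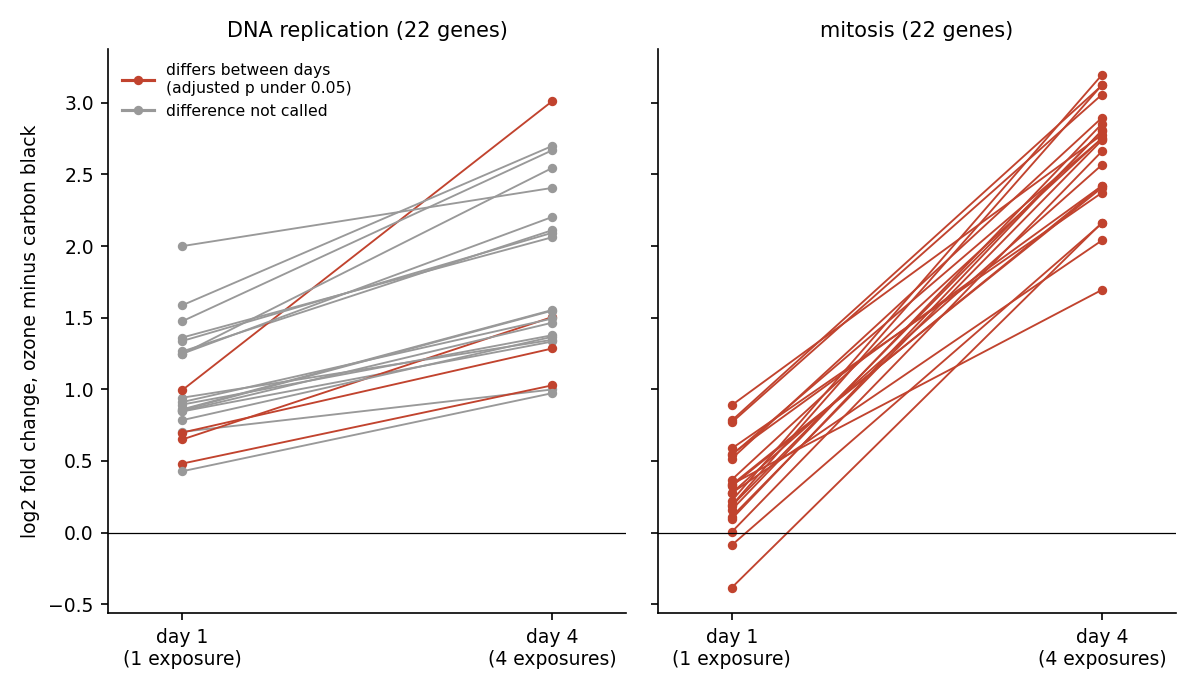
Log2 fold change of ozone over carbon black at day 1 and day 4 for the 22 DNA replication genes (left) and the 22 mitosis genes (right), with a line per gene. Red lines mark genes whose change differed between days at an adjusted p under 0.05: 4 replication genes, which were already above 0 at day 1, and all 22 mitosis genes, whose median was 0.30 at day 1 and 2.74 at day 4.

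Genes of injured and transitional epithelium rose as a group: 14 of 18 were higher and none lower, with a median of 1.03. Krt8 (chr15:101996698-102004482), the keratin of simple and transitional epithelium, was at 402, 591 and 499 CPM with ozone and 158, 218 and 203 CPM with carbon black (log2 fold change 1.36, SE 0.15, adjusted p = 5.09e-07). Cldn4 (chr5:134945119-134946934), a tight junction claudin, was at 27.7, 41.7 and 34.6 against 2.6, 7.51 and 10 CPM (log2 fold change 2.31, SE 0.26, adjusted p = 9.56e-07), and Sfn, the 14-3-3 sigma protein of epithelium, at 55, 87.6 and 68.4 against 18, 25 and 20.3 CPM (log2 fold change 1.73, SE 0.19, adjusted p = 3.86e-07). The groups were separate for each of these, and the sham libraries lay with the carbon black ones, at 209, 236 and 218 CPM for Krt8. Several of the largest rises came from cornified-envelope and squamous genes at low levels. Sprr2a2 (chr3:92215920-92256724), a small proline-rich protein, was at 14.2, 22.4 and 19.1 CPM with ozone and at 0 counts in every carbon black and sham library; with 431 counts against a floor of 3 over the group it was at least 122-fold higher. Its neighbour Sprr2a3 (chr3:92285417-92291405) had 35 counts against 0, at least 9.87-fold higher. Reads of the Sprr2 family are shared between near-identical copies, so the split between the members is uncertain. Psca, a surface protein of epithelial cells, had 57 counts against 0 (at least 16.1-fold), and Krt4, a squamous keratin, had 52 against 3, a ratio of 14.7 (95% counting interval 4.75 to 73.4). Of 7 basal and squamous genes tested, 2 were higher and none lower. The median of that list was 0.74, and -0.15 with limma-voom. Ly6d of the same list pointed the other way. It was called lower with the replicate number as a block (adjusted p = 0.0143) and with only the 6 libraries compared (0.0129).

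Several growth factors of the EGF family were higher, and the receptor Egfr was lower. Of 10 genes of this family, ligands and receptors, 5 were higher and 1 lower, although 2 were higher without ozone library 2 or with only the 6 libraries compared, and 3 without carbon black library 3 or with only the 12 libraries of day 4. Ereg, epiregulin, had 106 counts with ozone and 3 with carbon black, a ratio of 29.9 (95% counting interval 9.96 to 147). Hbegf, the heparin-binding member, was at 95.7, 114 and 114 against 61.9, 57.8 and 57.3 CPM (log2 fold change 0.88, SE 0.12, adjusted p = 1.4e-05). Areg, amphiregulin, was at 15.8, 19.3 and 16.2 against 12.1, 9.02 and 4.46 CPM (log2 fold change 1.04, SE 0.28, adjusted p = 0.0109), and missed the threshold without carbon black library 3 (adjusted p = 0.0766) or ozone library 2 (0.0572). Egfr, the receptor of all 3, was at 18.5, 18.9 and 24 against 37.2, 29.6 and 30.7 CPM (log2 fold change -0.66, SE 0.13, adjusted p = 0.000789).

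Genes that direct the making of new multiciliated cells rose, while those of the mature cilium mostly did not pass. Of 11 regulators of multiciliogenesis, 7 were higher and none lower (median 1.75), the same count in every alternative setting. Ccno, a cyclin-like protein needed to multiply centrioles, was at 25.6, 24.7 and 22.7 CPM with ozone and 6.06, 6.01 and 4.59 CPM with carbon black (log2 fold change 2.14, SE 0.33, adjusted p = 4.94e-05). Deup1, which builds the deuterosome platform of new centrioles, was at 34.6, 37.6 and 23.1 against 8.44, 10.1 and 8.24 CPM (log2 fold change 1.83, SE 0.27, adjusted p = 3.22e-05), and the transcription factor Foxn4 at 9.09, 12.5 and 7.19 against 1.95, 2.05 and 1.08 CPM (log2 fold change 2.52, SE 0.40, adjusted p = 6.09e-05). Sham levels of Deup1 were 3.49, 5.53 and 5.48 CPM, below both exposures. Plk4, the kinase that starts centriole duplication and also serves dividing cells, was at 27.8, 29.5 and 26.6 against 9.74, 8.88 and 6.49 CPM (log2 fold change 1.75, SE 0.18, adjusted p = 2.57e-07). Of 14 structural genes of ciliated cells only Tubb4b, a tubulin, was higher (0.53, adjusted p = 0.00305), and the median of the list was -0.27. Sntn, sentan of the ciliary tip, was at 16.6, 14.4 and 17.8 against 26.4, 22 and 30.0 CPM (adjusted p = 0.0993).

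Of 14 club cell genes, 3 were lower and none higher (median -0.35), against 9.16% of all genes lower. The count was 2 without ozone library 2 or 3 and 6 with DESeq2. Cyp2f2 (chr7:27119909-27133660), the cytochrome P450 of club cells, was at 2106, 1929.6 and 1844 CPM with ozone against 3191, 4069.9 and 3689.7 CPM with carbon black and 3798, 3978 and 4119 CPM in sham (log2 fold change -0.90, SE 0.18, adjusted p = 0.00102). Fmo2, a flavin monooxygenase, was at 511, 596 and 542 against 1265, 1042 and 772 CPM (log2 fold change -0.90, SE 0.19, adjusted p = 0.00148). The third, Aldh1a1, missed the threshold without carbon black library 2 (log2 fold change -0.28, adjusted p = 0.213), ozone library 2 (0.0574) or ozone library 3 (0.0667). Scgb1a1, the main secretory protein of these cells, was at 19392, 22730 and 20335 against 31853, 29766 and 33589 CPM; the groups did not overlap, yet it did not pass (log2 fold change -0.61, SE 0.25, adjusted p = 0.0828). No gene of the mucous list passed in 15 tested with edgeR, where 1 higher and 1 lower gene had an unadjusted p under 0.05; DESeq2 called 1 higher and 1 lower and limma-voom none. Muc5b, a gel-forming mucin, lay at 261, 91.5 and 166 and 127, 136 and 219 CPM, and the 95% interval of its log2 fold change ran from -0.68 to 0.89, which leaves room for a change in either direction.

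The alveolar lists had medians near 0 and calls in both directions. Over all genes, 10.9% were higher and 9.16% lower. Of 15 alveolar type 2 genes, 4 were higher and 1 lower (median 0.06), with 2 higher without carbon black library 1. Sftpd, surfactant protein D, was at 1611, 1493 and 1882 against 1165, 1263 and 1081 CPM (log2 fold change 0.51, SE 0.12, adjusted p = 0.00329), and Il33, an alarmin that these cells store, at 252, 230.4 and 258 against 134, 124 and 94.9 CPM (log2 fold change 1.07, SE 0.19, adjusted p = 0.000306). Lyz1, a lysozyme with a near-identical neighbour, was at 258, 211 and 292 against 572, 863 and 464 CPM (log2 fold change -1.32, SE 0.22, adjusted p = 0.000105), with sham at 459, 374 and 429 CPM below carbon black. Among 12 alveolar type 1 genes, 2 were higher and 2 lower (median -0.04), with 1 lower when carbon black library 1 or 2 or ozone library 1 or 2 was left out. The water channel Aqp5 stood at 475, 508 and 506 against 229, 331 and 290 CPM (log2 fold change 0.81, SE 0.12, adjusted p = 2.4e-05), and Cav1, caveolin of type 1 and endothelial cells, at 776, 844 and 804 against 1410.2, 1250.3 and 1172 CPM (log2 fold change -0.66, SE 0.12, adjusted p = 0.000318). Slc26a4, the anion exchanger pendrin, rose from 6.06, 6.28 and 5.0 to 23.9, 26.8 and 28.6 CPM (log2 fold change 2.19, SE 0.26, adjusted p = 1.78e-06).

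**Figure D3:**
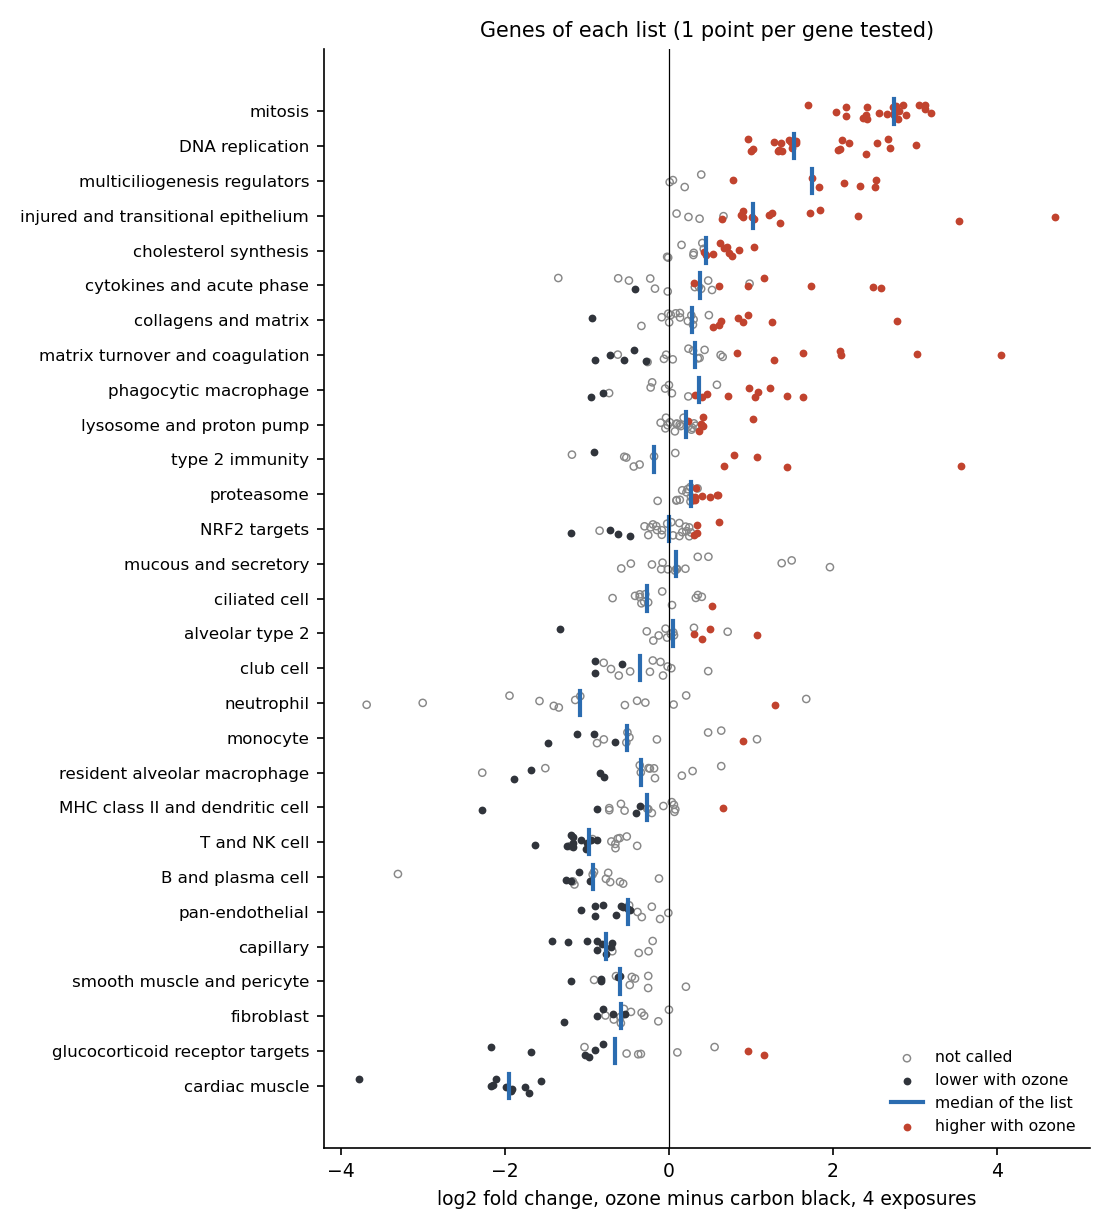
Log2 fold change of ozone over carbon black after 4 exposures for the tested genes of 29 lists, with 1 point per gene and a blue bar at the median of the list. Filled points passed the test (red higher, dark lower with ozone) and open points did not. Mitosis and replication lie wholly to the right, with medians of 2.74 and 1.53, and capillary (-0.77) and T and NK cell genes (-0.97) lie to the left.

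Matrix genes were higher in part. Of 22 collagen and matrix genes, 8 were higher and 1 lower (median 0.29), against 10.9% of all genes higher and 9.16% lower. None was lower without carbon black library 2 or ozone library 2. The count of higher genes was 4 without carbon black library 3, ozone library 1 or ozone library 3, and 5 without carbon black library 1 or ozone library 2. Tnc (chr4:63959785-64047015), tenascin C of wound matrix, was at 108, 132 and 141 CPM with ozone against 24.4, 20.8 and 11.1 CPM with carbon black and 22.7, 12.3 and 13.8 CPM in sham (log2 fold change 2.79, SE 0.38, adjusted p = 1.92e-05). Col12a1, a fibril-associated collagen, was at 108, 122 and 114 against 62.1, 48.9 and 34.2 CPM (log2 fold change 1.26, SE 0.24, adjusted p = 0.000713), and Col1a1, the main fibrillar collagen, at 757, 558 and 779 against 395, 395 and 281 CPM (log2 fold change 0.97, SE 0.22, adjusted p = 0.00259). All ozone libraries lay above all carbon black libraries for these 3 genes. Among 24 genes of matrix turnover and coagulation, 7 were higher and 5 lower, with 3 lower without ozone library 1, 2 or 3 or carbon black library 1. Timp1, an inhibitor of metalloproteinases, was at 19.5, 30.5 and 33.3 against 8.0, 7.38 and 4.46 CPM (log2 fold change 2.09, SE 0.32, adjusted p = 4.47e-05), and the membrane protease Mmp14 at 143, 133 and 154 against 58.8, 56.8 and 60.5 CPM (log2 fold change 1.29, SE 0.14, adjusted p = 5.98e-07). Hmmr, a hyaluronan-binding protein that is also part of the mitotic spindle, was at 25.1, 26 and 26.3 against 4.76, 3.42 and 1.62 CPM (log2 fold change 3.03, SE 0.36, adjusted p = 1.43e-06). Has2, which makes hyaluronan, was at 1.85, 3.95 and 5.32 against 0.216, 0 and 0.405 CPM (log2 fold change 4.06, SE 0.84, adjusted p = 0.00108). The carbon black levels of Has2 rest on few counts, so the size of its change is uncertain. It ran from 3.42 to 5.17 over the alternative settings.

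Several acute-phase genes were higher with ozone. Of 20 cytokine and acute-phase genes, 7 were higher and 1 lower, with none lower without carbon black library 1, ozone library 1 or ozone library 3. Saa3 (chr7:46711998-46715700), serum amyloid A3, was at 44.7, 54.7 and 43.3 CPM with ozone, 3.89, 8.74 and 11.8 CPM with carbon black and 10.8, 29.5 and 13.9 CPM in sham (log2 fold change 2.49, SE 0.41, adjusted p = 0.000169), so that carbon black was not above sham. Lcn2, the iron-binding lipocalin of injured epithelium and neutrophils, was at 339, 320.1 and 392 against 181, 159 and 129.9 CPM and 91.5, 86 and 68.9 CPM in sham (log2 fold change 1.16, SE 0.25, adjusted p = 0.00157). Hpx, hemopexin, was at 6.82, 7.79 and 4.74 against 1.3, 2.46 and 1.89 CPM (log2 fold change 1.73, SE 0.35, adjusted p = 0.000823). Il1b pointed the other way without passing, at 7.53, 6.89 and 6.75 against 22.9, 10.4 and 20.9 CPM (log2 fold change -1.35, SE 0.57, adjusted p = 0.0997). Of 21 chemokine genes, 4 were higher and 2 lower, with 1 or 2 higher when any library was left out. Cxcl10 was at 3.98, 4.85 and 5.03 against 0.433, 1.09 and 1.35 CPM (log2 fold change 2.18, SE 0.46, adjusted p = 0.00128), and Ccl2 at 1.42, 1.92 and 1.29 against 0, 0.137 and 0.676 CPM (log2 fold change 2.30, SE 0.68, adjusted p = 0.018); Ccl2 missed the threshold without carbon black library 1 (adjusted p = 0.0732), carbon black library 2 (0.0798) or ozone library 2 (0.0754). Cxcl14 was at 41.3, 53.2 and 58.2 against 96.5, 111 and 101 CPM (log2 fold change -1.02, SE 0.26, adjusted p = 0.00753). Cxcl1 and Il6 were too low to be tested. In the type 2 immunity list, 5 of 13 genes tested were higher, Retnla and Il33 among them, and 1 was lower (median -0.18). The list held 22 genes, and Il4, Il5, Il13, Epx, Prg2 and Ccr3 were among those not tested. The count of higher genes in this list was 3 without ozone library 1 or 3, and 2 of 12 with only the 6 libraries compared. None was lower without carbon black library 1.

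Some genes of phagocytic macrophages were higher, and some genes of resident alveolar macrophages lower, while the summed level of each list overlapped between the exposures. Of 20 genes of phagocytic macrophages, 10 were higher and 2 lower (median 0.37), with 6 higher without ozone library 1. Their summed level was 4336, 3885 and 4251 CPM with ozone, 4144, 4463 and 4406 CPM with carbon black and 3766, 3375 and 3492 CPM in sham. Ctsk, the protease cathepsin K, was at 94.7, 81 and 92.3 CPM with ozone, 48, 44.3 and 37 CPM with carbon black and 18.2, 19.1 and 19.6 CPM in sham (log2 fold change 1.06, SE 0.18, adjusted p = 0.000157), so both exposures lay above sham. Mmp12, macrophage elastase, was at 12.9, 12.5 and 10.9 against 5.19, 4.24 and 2.43 CPM (log2 fold change 1.64, SE 0.33, adjusted p = 0.000775). Gpnmb, a glycoprotein of macrophages with loaded lysosomes, lay at 50.1, 33.5 and 41 and 60.8, 48.9 and 35.9 CPM against 15, 12.9 and 8.81 CPM in sham; the exposures overlapped, and the 95% interval of their log2 fold change ran from -0.71 to 0.27. Cd36, a scavenger receptor also present on capillary endothelium, was lower, at 769, 730.5 and 754 against 1195, 1443 and 1287 CPM (log2 fold change -0.80, SE 0.14, adjusted p = 0.000257). Of 22 lysosome genes, 6 were higher and none lower, with 4 higher without ozone library 3; Npc2, which carries cholesterol out of lysosomes, was at 2022, 1915 and 2221 against 901, 1015 and 1109 CPM (log2 fold change 1.03, SE 0.11, adjusted p = 4.05e-07). Of 15 resident alveolar macrophage genes, 4 were lower and none higher (median -0.34). The number lower was 3 without carbon black library 1 or ozone library 2, and 5 without carbon black library 3. With only the 6 libraries compared, 1 was higher and 3 were lower. The summed level of the resident list was 1865, 1480 and 1639 CPM with ozone, 1466, 1440 and 1556 CPM with carbon black and 1066, 1024 and 877 CPM in sham. Ear1 and Ear2, eosinophil-associated ribonucleases with near-identical copies, were at 6.96, 5.53 and 7.33 against 27.3, 21.9 and 14.6 CPM (log2 fold change -1.68, SE 0.21, adjusted p = 3.56e-06) and at 32.5, 32.5 and 47.9 against 85.2, 66.7 and 50.7 CPM (log2 fold change -0.84, SE 0.18, adjusted p = 0.00133). Fabp1, a fatty acid binding protein, was at 2.7, 1.81 and 3.02 against 11.2, 8.47 and 8.24 CPM (log2 fold change -1.89, SE 0.27, adjusted p = 1.63e-05).

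Neutrophil genes did not pass after 4 exposures, apart from Lrg1. Of 15 tested with edgeR, 1 was higher and none lower (median -1.08), while 4 lower genes had an unadjusted p under 0.05, and DESeq2 and limma-voom also called none lower. S100a8, a subunit of calprotectin, was at 15.6, 22.2 and 26.9 CPM with ozone and 143, 32.9 and 75.7 CPM with carbon black, with no overlap but a wide spread in the latter (log2 fold change -1.94, SE 0.87, adjusted p = 0.123). Sham libraries held 16.7, 16.3 and 12.5 CPM. With the fit restricted to the 12 libraries of day 4, 5 neutrophil genes were lower. Lrg1, a secreted glycoprotein also made outside neutrophils, was at 188, 154 and 190.1 against 59.1, 82.8 and 74.7 CPM (log2 fold change 1.29, SE 0.24, adjusted p = 0.000499). At day 1 the same list had 13 lower genes and a median of -4.43, and 5 of its genes differed between days.

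Lymphocyte genes were lower with ozone, in counts that moved with the libraries used. In the T and NK cell list of 20, 11 were lower and none higher (median -0.97); 4 were lower without carbon black library 1, ozone library 1 or ozone library 2, and 14 without carbon black library 3. Nkg7, a granule protein, was at 1.56, 2.82 and 2.3 CPM with ozone and 5.63, 5.33 and 4.32 CPM with carbon black (log2 fold change -1.17, SE 0.27, adjusted p = 0.00336), and Gzma, granzyme A, at 6.25, 7.11 and 8.05 against 21.4, 13 and 14.2 CPM (log2 fold change -1.17, SE 0.28, adjusted p = 0.00359). The summed level of the list was 73.8, 82.7 and 93.7 CPM with ozone, 190, 140.3 and 111 CPM with carbon black and 130, 137 and 141 CPM in sham. Of 15 B and plasma cell genes, 4 were lower and none higher (median -0.93), with 1 lower without carbon black library 1, ozone library 1 or ozone library 2. The count was 11 with only the 6 libraries compared and 8 with only the 12 libraries of day 4 or with the replicate number as a block. For the T and NK cell list it was 4 with only the 6 libraries, 5 with only the 12 libraries and 7 with limma-voom. Ebf1, a B cell transcription factor, was at 17.9, 18.2 and 22.4 against 49.1, 27.6 and 38.1 CPM (log2 fold change -0.96, SE 0.23, adjusted p = 0.00437). Siglech (chr7:55768178-55778925), a lectin of plasmacytoid dendritic cells, was at 1.56, 1.47 and 1.29 CPM with ozone, 7.14, 8.74 and 5.27 CPM with carbon black and 1.8, 4.46 and 3.87 CPM in sham (log2 fold change -2.28, SE 0.35, adjusted p = 4.36e-05), without overlap between the exposures. Genes of red blood cells, which a rinsed or blood-filled lung holds in differing amounts, summed to 8482, 9050 and 5043 CPM with ozone, 16693, 12122 and 11541 CPM with carbon black and 30578, 22085 and 11143 CPM in sham, and 1 of 8 (Hbb-bt, adjusted p = 0.0457) was lower with ozone. Hbb-bt shares reads with other globin genes and missed the threshold without any of the ozone libraries or carbon black library 1 or 2 (adjusted p = 0.0716 to 0.168), but not without carbon black library 3 (0.0419). The part of blood content in the lymphocyte results was not tested.

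**Figure D4:**
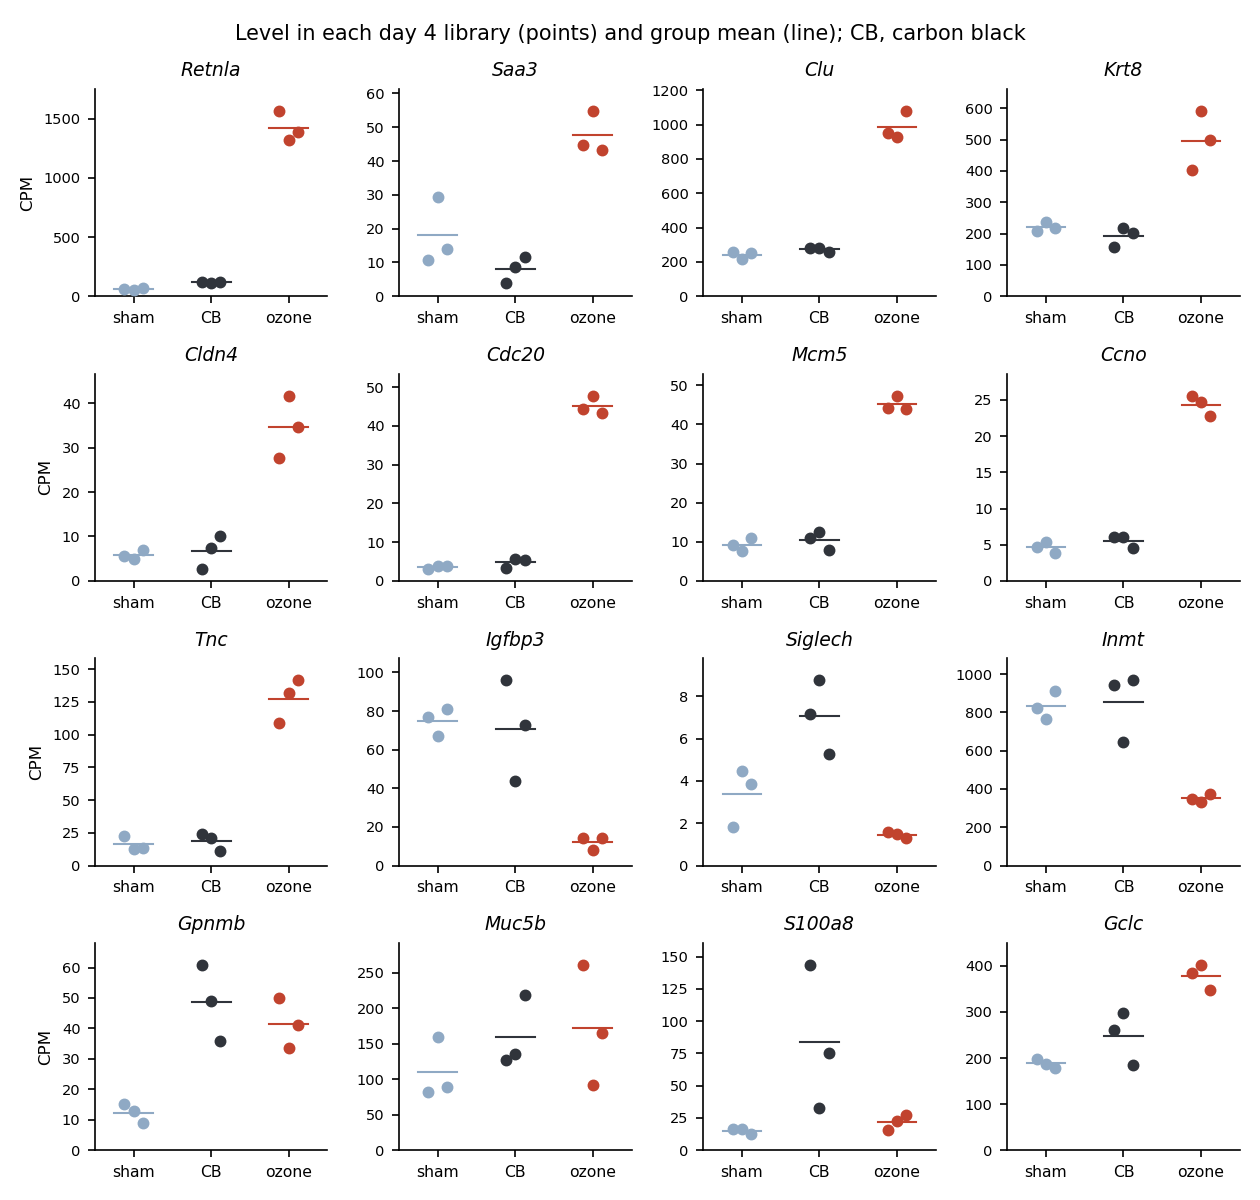
Level in CPM of 16 genes in each day 4 library of sham, carbon black (CB) and ozone, with points for the 3 libraries of a group and a line at their mean; each panel has its own axis from 0. Ozone libraries stand above both other groups for Retnla, Clu, Krt8, Cdc20 and Tnc and below them for Igfbp3 and Inmt, while Gpnmb is above sham in both exposures.

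Most of the endothelial genes tested were lower with ozone, and fewer of the stromal ones. Of 15 pan-endothelial genes, 9 were lower (median -0.50), and of 13 capillary genes 9 were lower (median -0.77), with none higher in either list, against 9.16% of all genes lower. Ednrb, the endothelin B receptor of capillaries, was at 58.2, 52.2 and 47.7 CPM with ozone and 160.3, 101 and 111 CPM with carbon black (log2 fold change -1.23, SE 0.18, adjusted p = 1.87e-05). Erg, an endothelial transcription factor, was at 55.4, 55.9 and 56.8 against 165, 96.2 and 91.9 CPM (log2 fold change -1.06, SE 0.17, adjusted p = 4.94e-05), and Ptprb, a vascular phosphatase, at 566, 575 and 576 against 1329, 1123 and 965 CPM (log2 fold change -0.99, SE 0.20, adjusted p = 0.00094). The ozone libraries were close together and lay below all carbon black libraries; carbon black library 1 was the highest for these 3 genes. At day 1 the pan-endothelial list had no call and the capillary list 1, and 3 genes of each differed between days. Erg, for example, had a log2 fold change of 0.00 at day 1 (difference -1.06, adjusted p = 0.00363). Of 15 fibroblast genes, 5 were lower, with 3 lower without carbon black library 2 or any of the ozone libraries; Inmt, a methyltransferase of lipid-storing fibroblasts, was at 348, 334 and 374 against 945, 645 and 967 CPM (log2 fold change -1.28, SE 0.22, adjusted p = 0.000219). Of 13 smooth muscle and pericyte genes, 5 were lower, with 2 lower without ozone library 2; Synpo2, an actin-binding protein, was at 24.3, 22.7 and 23 against 44.4, 48.9 and 65.4 CPM (log2 fold change -1.19, SE 0.19, adjusted p = 8.27e-05). Igfbp3 (chr11:7206086-7213923), which binds insulin-like growth factors, was among the 10 largest falls of genes whose groups did not overlap, at 14.3, 7.9 and 14.2 CPM with ozone, 95.8, 44 and 72.8 CPM with carbon black and 76.8, 67 and 81.2 CPM in sham (log2 fold change -2.55, SE 0.27, adjusted p = 4.05e-07).

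Oxidative stress genes did not move as a group. Of 28 NRF2 targets, 4 were higher and 4 lower (median 0.01), against 10.9% of all genes higher and 9.16% lower. When 1 library was left out the counts ran from 1 to 4 higher and from 2 to 5 lower. With only the 6 libraries compared, none of 27 was higher and 2 were lower. With only the 12 libraries of day 4, 1 was higher and 2 were lower. Gclc, which makes glutathione precursor, was at 385, 402 and 348 CPM with ozone, 260.3, 297 and 185 CPM with carbon black and 198, 188 and 178 CPM in sham (log2 fold change 0.61, SE 0.13, adjusted p = 0.00132). Gstm1, a glutathione transferase, was lower, at 203, 207 and 199 against 484, 466 and 437 CPM (log2 fold change -1.19, SE 0.12, adjusted p = 9.63e-08), with sham at 428, 455 and 454 CPM. Nqo1, a quinone reductase, overlapped at 7.1, 11.1 and 6.61 and 3.25, 18.9 and 7.57 CPM (log2 fold change -0.29, SE 0.33, adjusted p = 0.569), and Hmox1, heme oxygenase, lay at 44.2, 45.6 and 47.4 and 46.3, 49.9 and 42.7 CPM, with a 95% interval of the log2 fold change from -0.23 to 0.19. At day 1, 10 of the list were higher and 1 lower, and 8 had a lower log2 fold change at day 4 than at day 1 by the test of the difference. For Nqo1 it went from 1.86 to -0.29 (adjusted p of the difference 0.00383). Cyp1a1, a target of the aryl hydrocarbon receptor, was at 12.1, 5.76 and 7.47 against 9.74, 197 and 21.4 CPM (log2 fold change -3.20, SE 0.70, adjusted p = 0.0027); carbon black library 2 alone was high, and without it the log2 fold change was -0.93 (adjusted p = 0.0789).

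Genes of cholesterol synthesis and of some other biosynthetic steps were higher. Of 17 genes of cholesterol synthesis, 10 were higher and none lower (median 0.45), with 9 to 11 in the alternative settings. Fdps, farnesyl diphosphate synthase, was at 119, 110 and 119 against 47.4, 72.1 and 70.9 CPM (log2 fold change 0.86, SE 0.14, adjusted p = 6.32e-05), and Sqle, squalene epoxidase, at 79.4, 84.1 and 82.5 against 39.4, 54.5 and 55 CPM (log2 fold change 0.72, SE 0.13, adjusted p = 0.000352). Psat1, an enzyme of serine synthesis, was at 37.9, 40.8 and 36.1 against 12.8, 9.29 and 12.3 CPM (log2 fold change 1.75, SE 0.18, adjusted p = 2.57e-07), and Mthfd2, an enzyme of mitochondrial folate metabolism, at 13.2, 17.2 and 13.1 against 3.89, 5.19 and 6.08 CPM (log2 fold change 1.50, SE 0.19, adjusted p = 3.51e-06). They belong to an amino acid response list in which 4 of 14 genes were higher and 2 lower, with 2 higher without carbon black library 1 or ozone library 2 and 1 lower without carbon black library 3. Of 19 proteasome genes, 8 were higher and none lower (median 0.27), with 4 higher without ozone library 2 or 3. Of 18 glycolysis and hypoxia genes, 6 were higher and 2 lower, with 1 lower without carbon black library 1 or ozone library 1. The median of that list was -0.06, so it was not shifted upward as a whole. Pkm, pyruvate kinase, was at 451, 558 and 506 against 323, 314 and 333 CPM (log2 fold change 0.64, SE 0.10, adjusted p = 8.63e-05), a change of under 1 on the log2 scale. Ptgs1, cyclooxygenase 1, was at 151, 149 and 152 against 55.2, 78.2 and 69.2 CPM (log2 fold change 1.15, SE 0.13, adjusted p = 5.98e-07), whereas Hpgd, which degrades prostaglandins, was at 236, 254 and 274 against 647, 568 and 419 CPM (log2 fold change -1.10, SE 0.21, adjusted p = 0.000487).

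Targets of the glucocorticoid receptor were lower more often than higher, with 6 of 14 lower and 2 higher (median -0.66). The number lower was 3 without carbon black library 1, ozone library 2 or ozone library 3, and 4 without carbon black library 3, and 1 was higher when any library but ozone library 1 was left out. Dusp1, a phosphatase that ends MAP kinase signalling, was at 79.2, 51.5 and 42.4 CPM with ozone, 248, 142 and 167 CPM with carbon black and 211, 187 and 186 CPM in sham (log2 fold change -1.68, SE 0.28, adjusted p = 0.000196). Klf9 was at 166, 151 and 178 against 413, 243 and 314 CPM (log2 fold change -0.97, SE 0.18, adjusted p = 0.00048) and Tsc22d3, the protein GILZ, at 116, 106 and 118 against 239, 165 and 232 CPM (log2 fold change -0.90, SE 0.19, adjusted p = 0.00116). Sham libraries were at 299, 438 and 433 CPM of Klf9 and 245, 391 and 393 CPM of Tsc22d3. The 2 higher genes were Lcn2 and Mt2, which encode a lipocalin and a metallothionein. The clock gene Arntl was at 7.53, 7.9 and 7.62 against 20.6, 12.4 and 17.2 CPM (log2 fold change -1.11, SE 0.29, adjusted p = 0.00854), 1 of 2 lower genes among 16 of the clock (1 of 1 without carbon black library 1, ozone library 2 or ozone library 3), and the sources used here do not give the time of day at which lungs were taken.

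Heart muscle genes differed as well. All 10 were lower with ozone (median -1.95). Without carbon black library 3 none passed and the median was -0.92. Without ozone library 2 none passed, at a median of -1.94, and without ozone libraries 3 and 1 the counts were 1 and 3, at medians of -1.96 and -2.06. None passed with only the 6 or only the 12 libraries, at medians of -1.96 and -1.95, and 4 passed with limma-voom. Their summed level was 227, 171 and 188 CPM with ozone, 260.3, 504 and 1564 CPM with carbon black and 460.2, 896 and 873 CPM in sham. Skeletal muscle genes were low except in carbon black library 3 (645 CPM in sum, against 8.58 to 26.4 CPM in the other day 4 libraries of ozone, carbon black and sham), and fat genes reached 857 CPM there, against 84.2 and 93.3 CPM in the other carbon black libraries, 21.3 to 113 CPM with ozone and 175, 159 and 544 CPM in sham. Several of the 10 largest falls of genes whose groups did not overlap are genes of striated muscle: Tnnc1, troponin C, was at 2.84, 2.37 and 3.88 CPM with ozone and 6.06, 9.84 and 30.1 CPM with carbon black (log2 fold change -2.37, SE 0.52, adjusted p = 0.00239), and Lmod2, leiomodin, at 2.13, 1.35 and 1.29 against 2.16, 5.33 and 15.8 CPM (log2 fold change -2.32, SE 0.67, adjusted p = 0.0162). Art1, Adprhl1, Apobec2 and Txlnb also had their highest value in carbon black library 3 (5.13, 5.54, 5.81 and 23.1 CPM). Without that library Lmod2, Art1, Adprhl1, Apobec2 and Txlnb did not pass (adjusted p = 0.181, 0.193, 0.0913, 0.388 and 0.233). Lmod2, Art1, Apobec2 and Txlnb also missed the threshold without ozone library 2 (0.0686, 0.158, 0.0979 and 0.109) or 3 (0.0614, 0.13, 0.106 and 0.113), and Apobec2 without ozone library 1 (0.0857). The part of heart and muscle RNA in other differences was not tested. Other large falls had another order of libraries: Fam124b was at 0.71, 0.677 and 0.575 against 6.71, 7.65 and 2.57 CPM (log2 fold change -3.06, SE 0.48, adjusted p = 5.72e-05), and Ces1f, a carboxylesterase, at 3.55, 4.63 and 3.74 against 5.84, 38.5 and 16.4 CPM (log2 fold change -2.36, SE 0.45, adjusted p = 0.000647), the highest in carbon black library 2.

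**Figure D5:**
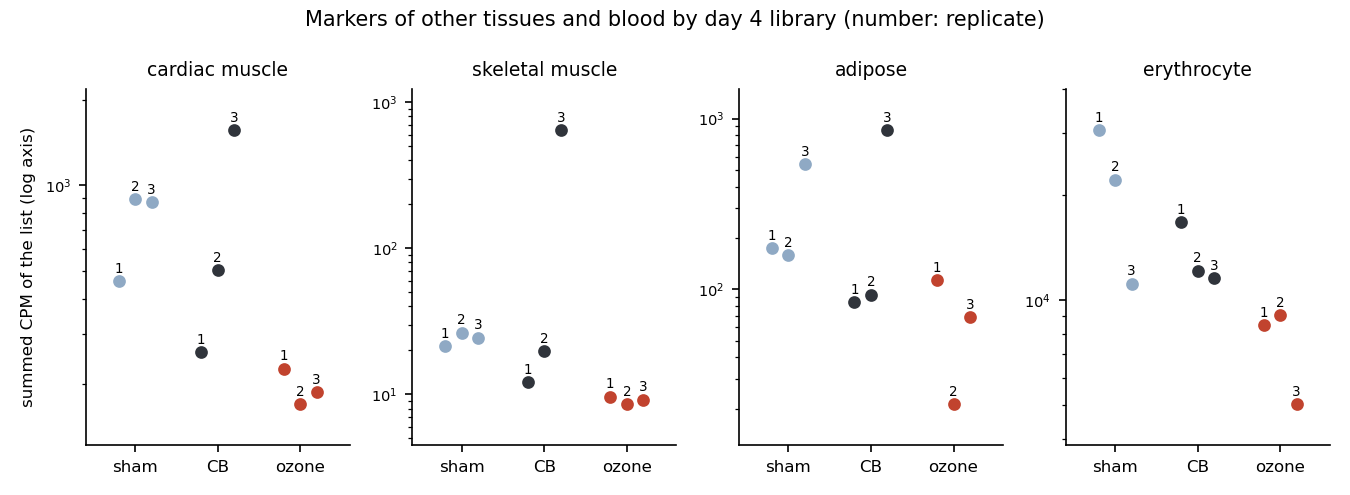
Summed CPM of the genes of 4 lists (10 cardiac muscle, 10 skeletal muscle, 8 adipose and 8 erythrocyte genes) in each day 4 library of sham, carbon black (CB) and ozone, on log axes, with the replicate number beside each point. Carbon black library 3 stands above all others in the first 3 panels (1564, 645 and 857 CPM).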

How the data were processed

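RNA of whole lung was sequenced in 28 libraries. Transcript abundance was quantified with Salmon 1.1.0 per the labels' protocols, and the authors deposited estimated counts, summed to genes in the table (17.7% of values not whole). The submitters' processing notes also name mm10, R 3.6.3 and DESeq2, without their roles. Of 35880 identifiers, 35505 were matched to GENCODE M21 (GRCm38). The counts were rounded and tested with edgeR 4.0.16 in R 4.3.3 (TMM factors 0.902 to 1.05, filterByExpr, quasi-likelihood test, Benjamini-Hochberg adjustment) in a single fit of all 28 libraries with 20 residual degrees of freedom and a common coefficient of variation of 15.7%. The filter left 14887 genes with 99.9% of the counts. Totals were 5.14 M to 9.72 M counts per library (median 7.19 M). Intervals of ratios of counts, and floors, cover counting error only; intervals of log2 fold changes come from the fitted SE and include the spread between libraries.

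The script was tested on simulated data. Alternatives were DESeq2 1.42.0, limma 3.58.1 (voom), other scaling, filters and sets of libraries, a replicate block and leaving out each library. The members and gene lists were chosen with earlier results of these data known. Named genes are the 10 largest rises and 10 largest falls (adjusted p under 0.05, a log2 change of at least 1, groups not overlapping, a mean of at least 2 CPM in the higher group), the 6 smallest p values, the 6 largest rises and 4 largest falls of the difference between days, the leading members by p of every list (at most 4 a list), and a fixed set, of which Cxcl1 and Il6 were not tested. Kif11 was named for its promoter, and Rfc3 and Rrm2 for their rank, after their values were seen.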

Additional observations from a re-analysis of the deposited data

Results flagged for a closer look

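The log2 fold change of ozone over carbon black differed between 4 exposures (day 4) and 1 exposure (day 1) for 883 genes, by the test of the difference itself in the same edgeR fit. All values here are the day 4 log2 fold change minus that of day 1, so that a positive value means that ozone stood higher relative to carbon black at day 4. Day and number of exposures cannot be told apart.

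All 22 mitosis genes differed between days. Among genes of dividing cells the difference was 2.97 for Cdc20, 3.04 for Knstrn, 4.34 for Pif1, a helicase, 3.44 for Troap, 1.87 for Mki67 and 1.05 for Kpna2. Hist1h2ap, a histone gene with near-identical copies, had 2.89. It was also positive for the neutrophil genes S100a8 (4.15), S100a9 (4.63) and Mmp8 (5.26) and for Acod1 (6.02, SE 1.68), which makes itaconate in activated macrophages. Acod1 had no value with only the 6 day 4 libraries compared, so the size of its difference is uncertain. The difference was 2.04 for Tnip3, 1.61 for Retnla and 1.28 for Clu. Sprr2a2 had 8.27 and Hecw1 4.38; both had at most 1 count over the carbon black libraries of day 4, so that these fitted values depend on the prior count.

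The difference was negative for Gsta1 (-7.32, SE 1.26), a glutathione transferase, and for Nqo1 (-2.16). Gsta1 had no value with only the 6 day 4 libraries compared. Its day 4 log2 fold change ran from -2.38 to -0.19 over the other settings, so the size of its difference is uncertain. The difference was also negative for Cyp26b1 (-4.06), which degrades retinoic acid, for Igfbp3 (-1.46) and for Fam124b (-2.56). The muscle genes Trim63 (-4.61), Sbk3 (-3.33), Lmod2 (-3.25), Adprhl1 (-3.04) and Tnnc1 (-2.72) were highest at day 4 in carbon black library 3, and the part of heart and muscle RNA in their differences was not tested.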

How the results depend on the processing

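The main count of 2981 genes was 3193 with DESeq2, 2847 with limma-voom, 2996 with median-of-ratios scaling, 2437 with no low-count filter and 3008 with a stricter filter. It was 1687 with only the 6 libraries compared, 1843 with only the 12 libraries of day 4, and 717 when a log2 change of at least 1 was also asked for. Leaving out 1 library gave 1885 to 3116 genes at day 4, 1076 to 1550 at day 1 and 500 to 1012 for the difference between days. Of 185 named genes called, 185 kept their call with DESeq2, 168 with limma-voom and 136 to 165 when a library was left out. With only the 6 libraries compared, 133 of the 175 with a value kept it, and with only the 12 libraries of day 4, 153 of 184. No named gene called reversed its direction in these settings. With the replicate number as a block (replicate block) 3080 genes were called at day 4, 1671 at day 1 and 886 for the difference. The deviations of same-numbered ozone and carbon black libraries from their group means had correlations of -0.105, 0.0425 and -0.00968. With 3 libraries a group these values cannot show whether a shared number marks a shared batch, and the labels do not say. Groups of 3 libraries, 5.14 M to 8.46 M counts each, limit calls at low levels.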

Other observations

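Of 22 interferon response genes, which encode antiviral proteins, 1 was higher and 2 were lower with ozone after 4 exposures. Over all genes, 10.9% were higher and 9.16% lower. The median log2 fold change of the interferon genes was -0.11. No interferon gene passed without carbon black library 1 or ozone library 3, and none was higher without carbon black library 3 or ozone library 2. The number lower was 1 without carbon black library 2, ozone library 1 or ozone library 2, and 3 without carbon black library 3. At day 1, 16 of the 22 were lower with ozone (median -0.70), and 4 differed between days. Heat shock chaperones, which refold proteins, had 1 of 13 higher at day 4, none without carbon black library 1 or 3 or ozone library 1. At day 1, 5 were lower, and 5 differed between days. Of 5 mast cell and basophil genes, 2 were lower, and 1 was lower when any library but carbon black library 1 was left out. Of 6 mesothelium genes, 2 were higher and none lower, at a median of -0.38, while 2 lower genes had an unadjusted p under 0.05. With only the 6 libraries compared, 2 were higher and 2 lower.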
